A study of Mus musculus with 2 samples.

Results

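C1q macrophages were taken here as cells that carry transcripts of the complement component C1q together with a macrophage gene. A cell was a member if it held at least 5 UMIs (unique molecular identifiers, 1 per captured transcript) of C1qa, C1qb and C1qc in sum and at least 1 UMI of Csf1r or Cd68, with 0 UMIs of Cd79a, Cd3e and Cxcr2, which mark B cells, T cells and neutrophils. In the library labelled CKO, 89 of 11155 filtered cells met this rule, or 0.798% (exact binomial 95% interval 0.641 to 0.981%). In the library labelled WT, 0 of 2925 cells met it, which allows a share of up to 0.103% by a limit of 3 cells, or 0.126% by the exact binomial method. The genes of the rule chose the members, so their levels and these shares are a description and were not tested.

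The series profiled immune cells 1 by 1 from the inflamed colon of C57BL/6 mice in a model of experimental colitis. It holds 2 libraries made with a 10x 3′ gene expression kit, 1 labelled WT and 1 labelled CKO, and the series title names loss of RPA1. The colitis protocol, the Cre driver, the deleted exons, the age of the animals and the number of mice per library were not stated in the labels. With 1 library per label there was no replicate check, no test was made, and the label cannot be told apart from the animal or the cell preparation.

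Macrophages of the gut wall take up dying cells and bacteria and keep the mucosa quiet in health, and most are renewed from blood monocytes that carry Ly6c2. C1q is the recognition molecule of the classical complement pathway. It is assembled from the A, B and C chains, binds antibody complexes and dying cells, and is made mainly by tissue macrophages. In an inflamed colon, resident macrophages, monocytes on the way to becoming macrophages and monocyte-derived cells that make nitric oxide can be present side by side.

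The libraries held 18627050 UMIs over 2972 barcodes (WT) and 57740083 UMIs over 11311 barcodes (CKO). The 89 members held 838535 UMIs in sum, with a median of 8878 UMIs per cell (range 522 to 34695), 2238 genes and 2.14% mitochondrial UMIs. Their depth was close to that of 412 monocytes (median 8456.5 UMIs), 118 Nos2 macrophages (9545) and 71 dendritic cells (10660) gated in the same library. Monocytes were gated on Ly6c2 and Lyz2, Nos2 macrophages on at least 3 Nos2 UMIs, and dendritic cells on Flt3, Zbtb46 and H2-Ab1, all with at most 1 C1q UMI. The library labelled WT held 18 monocytes, 0 Nos2 macrophages and 8 dendritic cells by these gates. Levels are UMIs summed over a class and scaled to CPM (counts per 1000000 UMIs), and every interval given is at 95% and reflects counting error alone.

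Rpa1, the gene named by the title, encodes a subunit of the protein complex that protects single-stranded DNA during replication and repair. It gave 7 UMIs in the members, or 8.35 CPM (3.36 to 17.2), beside 25 UMIs in monocytes (7.01 CPM, 4.54 to 10.4), 2 in Nos2 macrophages and 11 in dendritic cells. The member and monocyte intervals overlap. No member of the library labelled WT exists to set beside them, so Rpa1 does not check the label in these cells.

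The library labelled WT was not free of C1q transcripts. Over all its filtered cells the C1q genes summed to 260 UMIs, or 14.0 CPM (12.3 to 15.8), against 5367 UMIs, or 93.2 CPM (90.8 to 95.8), in the library labelled CKO. In the library labelled WT 3 cells reached 5 C1q UMIs, with 71, 133 and 25 of them, and these cells held 88.1% of its C1q UMIs. The first carried 1 Cd79a UMI, the second 19 Cxcr2 UMIs and the third 2 Cd3e UMIs, so each was left out by 1 term of the rule. In the library labelled CKO 177 cells reached 5 C1q UMIs, and the 88 left out include 53 with Cd79a or Cd3e and 36 with Cxcr2. The difference between the libraries in cells at 5 C1q UMIs is therefore seen before the other terms of the rule are applied.

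**Figure D1:**
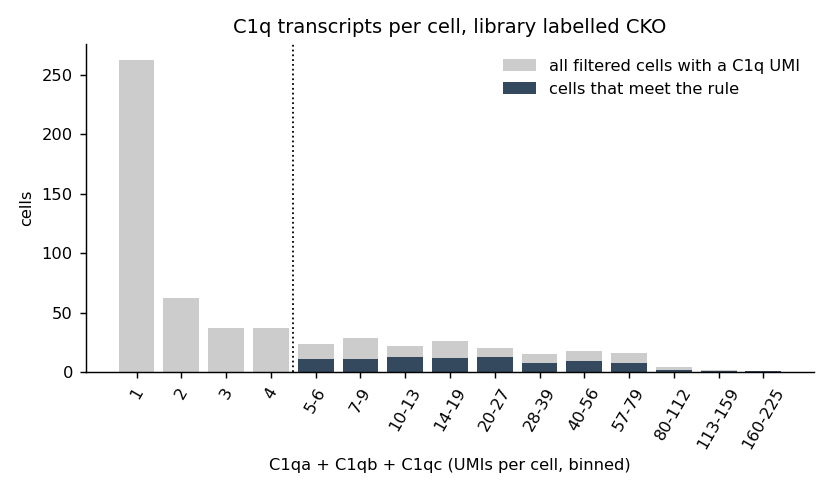
Cells of the library labelled CKO by their summed C1qa, C1qb and C1qc UMIs (x axis, binned; cells with 0 are not drawn), with all filtered cells in grey and the cells that meet the rule in dark blue, and the minimum of 5 UMIs as a dotted line. Of the 177 cells to the right of the line, 89 meet the rule, and cells with 1 UMI are the most frequent bin.

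C1q UMIs in cells that should lack the gene gauge the free RNA in the droplets. In the library labelled CKO 43 of 3010 B cells (1.43%, median depth 3244 UMIs) had any C1q UMI, with up to 7 in a cell. So did 13 of 268 T cells (4.85%, up to 4) and 78 of 1485 neutrophils (5.25%, up to 65). The highest B cell and neutrophil counts lie above the minimum of 5, and whether they are free RNA alone was not tested. Of monocytes, a class gated at no more than 1 C1q UMI, 6.55% had any. Just inside the minimum lay 11 members with 5 or 6 C1q UMIs, with 2449 CPM of Ly6c2, 566 CPM of Apoe and 0 UMIs of Ms4a7. Just outside lay 25 cells with 3 or 4 C1q UMIs that met the other terms, with 2541 CPM of Ly6c2, 1481 CPM of Apoe and 9.46 CPM of Ms4a7. Cells on either side of the minimum were thus close in Ly6c2, while Apoe was higher just outside it. H2-Aa (1966 against 1329 CPM) and Il10 (185 against 37.8 CPM) were higher just inside it. Just inside the minimum, all Il10 UMIs came from 1 cell with 8 and 1 cell with 10, and single cells held up to 67 and 63 H2-Aa UMIs. These differences therefore rest largely on few cells. The part of single cells just outside the minimum was not tested. Both sets had more Ly6c2 and less Apoe and Ms4a7 than the 78 members with 7 or more C1q UMIs (1160 CPM of Ly6c2, 6104 CPM of Apoe, 151 CPM of Ms4a7).

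The C1q genes lie side by side on the minus strand of mouse chromosome 4 (GRCm38, GENCODE vM21), C1qb at 136880129 to 136886187, C1qc at 136889804 to 136893065 and C1qa at 136895917 to 136898803. The B chain was found in most members. C1qb had 1097 UMIs in 86 of 89 cells (median 10, highest 59), C1qa 848 UMIs in 66 cells (median 5, highest 71) and C1qc 546 UMIs in 77 cells (median 4, highest 37). All 3 chains were seen in 58 members, 2 chains in 24 and 1 chain in 7, and 23 members had no C1qa UMI.

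Since the chains are read side by side in most of these cells, the 250 bases before the RefSeq start of C1qb (chr4:136886201-136886450) and of C1qc (chr4:136892915-136893164), both GRCm38.p6 and both on the minus strand, are printed 5′ to 3′. Capitals mark the MAF core TGCTGA and the core GAGGAA of the myeloid factor PU.1, searched on both strands, where the motifs do not overlap one another.
C1qb: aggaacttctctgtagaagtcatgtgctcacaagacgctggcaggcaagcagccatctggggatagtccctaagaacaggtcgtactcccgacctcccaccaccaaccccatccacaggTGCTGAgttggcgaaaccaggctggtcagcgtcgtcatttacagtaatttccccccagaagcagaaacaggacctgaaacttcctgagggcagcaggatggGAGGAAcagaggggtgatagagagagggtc
C1qc: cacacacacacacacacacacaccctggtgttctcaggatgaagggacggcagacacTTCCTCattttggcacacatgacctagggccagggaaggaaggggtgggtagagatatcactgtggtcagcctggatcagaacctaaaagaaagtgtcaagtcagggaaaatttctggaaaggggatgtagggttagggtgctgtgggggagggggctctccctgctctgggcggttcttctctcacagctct
The C1qb window holds 1 MAF core and 1 PU.1 core on its own strand. The C1qc window holds 1 PU.1 core on the opposite strand (TTCCTC) and no MAF core. By the GENCODE positions above, C1qc reaches to 136893065, so its window, which begins at 136892915, lies in part inside that gene. The C1qb window lies wholly outside C1qb in both annotations, so the windows are not alike in position by GENCODE. Among 32851 RefSeq windows of the same length, 16.1% hold the MAF core and 23.3% the PU.1 core, so these letters are common and mark no binding site by themselves. Of the factors that read such motifs, Maf was at 84.7 CPM in members and 71.5 CPM in monocytes, and Spi1, which encodes PU.1, at 457 and 553 CPM.

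Macrophage genes outside the rule were read next, and most of them do not by themselves set members apart from monocytes. The monocyte and macrophage identity list, which includes the rule genes Csf1r and Cd68, summed to 19656 CPM in members and 22234 CPM in monocytes. Of its 22 genes, 4 were at least 2-fold higher in members (Adgre1, Nr1h3, Ms4a7 and Trem2) and 0 lower. In that comparison 3.49% of all 6074 genes tested were higher and 2.93% lower. Lyz2 was also part of the monocyte gate. Mpeg1, which encodes a pore-forming protein of phagocytes, was seen in 81 of 89 members, Cd14, a co-receptor for bacterial lipopolysaccharide, in 87 and Lyz2 in 88. Fcgr1, a high-affinity antibody receptor, was seen in 57 and Adgre1, the F4/80 antigen, in 41. Mertk, a receptor for dying cells, gave 10 UMIs in 10 cells, at 11.9 CPM against 1.40 CPM in monocytes. Of 20 gut resident and perivascular macrophage genes, 5 gave 0 UMIs in 838535 (Cd163, Lyve1, Folr2, Cbr2 and Cd209f), which allows up to 3.58 CPM each. Cd163 also gave 0 UMIs in the whole library and Folr2 and Cd209f 1 each, so their 0 says little about the members. Timd4, another gene of resident macrophages, was seen in 11 members, at 33.4 CPM against 1.40 CPM in monocytes. It stood at 44.4 CPM in dendritic cells, so it does not set members apart from that class.

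Against monocytes of the same library, the members had more transcripts for lipid carriers, complement, antigen presentation and interleukin 10, and fewer of the classical monocyte genes. Of 6074 genes with at least 50 UMIs over both classes, 212 were at least 2-fold higher in the members (3.49%) and 178 at least 2-fold lower (2.93%), and the median log2 ratio of all was -0.04. Apoe, which encodes the lipid carrier apolipoprotein E, stood at 5462 CPM (5305 to 5622) in members and 255 CPM (239 to 272) in monocytes, a log2 ratio of 4.42 (4.32 to 4.53). Apoe was in 67 of 89 members. It was also found in 62.4% of B cells, at 879 CPM, while dendritic cells held 13 UMIs in all, so it is not evenly spread over the cell classes. With all cells thinned at random to 1000 UMIs and 1 member, 2 monocytes and 8 B cells dropped as too shallow, Apoe was seen in 61.4% of members (75.3% unthinned), 13.7% of monocytes (34.5%) and 41.7% of B cells. The rule removes cells with Cd79a, and the B cell marker list summed to 564 CPM in members and 1082 CPM in monocytes.

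Lipid handling genes were the list with the most members past 2-fold. Of 18 tested, 12 were higher and 1 lower, with a median log2 ratio of 1.06, where 3.49% of all 6074 genes were higher and 2.93% lower. Pltp, a phospholipid transfer protein, was at 134 CPM against 8.41, and Abca1, which exports cholesterol, at 253 against 80.5 CPM. Trem2, a lipid-sensing receptor, was at 38.2 against 14.6 CPM and Gpnmb at 65.6 against 8.41 CPM, with Gpnmb in only 5 of 89 members. Lpl, lipoprotein lipase, was the lower gene, at 13.1 against 30.9 CPM. Plin2, which coats lipid droplets, was at 396 against 408 CPM. The list summed to 8953 CPM in members and 2935 CPM in monocytes. Within the members it was uneven over the sets defined below, at 27664 CPM in Prg4 Alox15 cells, 9642 CPM in Apoe cells and 3504 CPM in Ly6c2 cells. The list holds Apoe, which that split used.

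Complement genes other than the C1q chains were higher in part. Of 13 list genes tested 6 were higher and 0 lower, but 3 of the 6 are the C1q genes of the rule. Among all 6074 genes tested 3.49% were higher and 2.93% lower. C4b, the classical pathway component downstream of C1q, was at 329 CPM (291 to 370) against 34.5 (28.7 to 41.2). C3ar1, the C3a receptor, was at 129 against 25.5 CPM. C3 itself was at 179 against 225 CPM, Cfb at 612 against 360 CPM, and C2 gave 0 UMIs.

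Genes of class II antigen presentation were at intermediate levels. H2-Aa stood at 3548 CPM (3422 to 3678) in members, 1420 CPM (1381 to 1459) in monocytes, 541 CPM in Nos2 macrophages and 6459 CPM in dendritic cells. Cd74, the invariant chain, followed the same order, with 7095, 3326, 1449 and 12256 CPM. Of the class II list, 4 of 11 tested genes were at least 2-fold higher than in monocytes and 0 lower. In that comparison 3.49% of all 6074 genes were higher and 2.93% lower. Against dendritic cells 0 of 14 were higher and 4 lower (H2-DMa, H2-DMb2, H2-Oa and H2-Ob), where 15.2% of all 3812 genes tested were higher and 10.9% lower. H2-Ab1 was part of the dendritic cell gate.

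Il10, an anti-inflammatory cytokine of gut macrophages, was at 270 CPM (236 to 307) in members and 74.0 CPM (65.4 to 83.5) in monocytes, 3.64-fold apart (3.03 to 4.36). Its UMIs came from 23 of 89 members, and 1 cell held 56 of them. After thinning, Il10 was seen in 14.8% of members (25.8% unthinned), 5.61% of monocytes (15.5%) and 0.0999% of B cells (0.764%). Ms4a7, a membrane protein gene of mature macrophages, was at 134 against 7.57 CPM, and 36.7% of all Ms4a7 UMIs of the library lay in the members. Axl, a receptor for dying cells, was at 117 against 28.6 CPM and Adgre1 at 144 against 52.7 CPM. Of the gut resident and perivascular list, 7 of 20 genes had enough UMIs to be tested. Of these 6 were higher, among them Cx3cr1 (33.4 against 6.45 CPM), Selenop (212 against 75.4 CPM) and Cd63 (242 against 23.8 CPM), and 1 was lower (F13a1, 58.4 against 203 CPM). Among all 6074 genes tested 3.49% were higher and 2.93% lower.

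Monocyte genes were lower as a group. Of 18 tested, 8 were at least 2-fold lower and 1 higher, with a median log2 ratio of -0.76, where 2.93% of all 6074 genes were lower and 3.49% higher. Chil3, a chitinase-like protein of monocytes, was at 400 CPM (358 to 445) against 1342 (1304 to 1380), and Vcan, a matrix proteoglycan, at 96.6 against 346 CPM. Ly6c2 was at 1309 against 2895 CPM, but the monocyte gate required it. Ccr2, the receptor that brings monocytes into tissue, was at 192 against 293 CPM. Fn1, fibronectin, was the higher gene, at 403 against 128 CPM. The 12 genes lowest against monocytes included Vcan, F13a1, Chil3 and Ifitm6 of monocytes, Retnlg, Wfdc21, Mmp8, Lcn2 and S100a8, which are known from neutrophils, the lymphocyte cytokines Il22 and Ifng, and Oaf. Retnlg stood at 33.4 against 221 CPM and Ifng at 79.9 against 320 CPM.

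Inflammatory transcripts were present in the members, with Il1b and Tnf near monocyte levels and part of the cytokine and chemokine genes higher. Il1b was found in 87 of 89 members, at 9346 CPM against 9863 CPM in monocytes, and Tnf stood at 414 against 328 CPM. Of 16 inflammatory cytokine genes 3 were higher (Il1a, Il6 and Lif) and 0 lower. Of 18 chemokine genes 7 were higher and 0 lower, including the neutrophil attractant Cxcl1 (1058 against 395 CPM) and the monocyte attractant Ccl7 (62.0 against 14.6 CPM). Of 12 necroptosis and pyroptosis genes tested 0 were past 2-fold, and Ripk3, Mlkl and Zbp1, which act in necroptosis, were at 33.4, 23.9 and 359 CPM against 32.0, 20.2 and 484 CPM. Of 17 interferon-stimulated genes 0 were higher and 1 was lower (Cmpk2). Among all 6074 genes tested 3.49% were higher and 2.93% lower, and counts of 0 or 1 in lists this short cannot be told apart from those shares.

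The other lists can be given as counts against monocytes, where 3.49% of all 6074 genes tested were higher and 2.93% lower. Counts of 0 or 1 in lists this short cannot be told apart from those shares. Of lysosome genes 3 of 23 were higher (Ctsl, Lgmn and Lipa), of scavenger and apoptotic cell receptors 2 of 11 (Axl and Itgb5), of monocyte and macrophage identity genes 4 of 22 (Adgre1, Nr1h3, Ms4a7 and Trem2), and 0 were lower in each. Of anti-inflammatory and repair genes 5 of 18 were higher and 1 lower, of matrix and protease genes 5 of 13 and 1, and of nitric oxide, arginase and itaconate enzymes 4 of 9 and 0. Nos2 is 1 of these 4, and the monocyte gate capped it at 2 UMIs, so its difference was set in part by the gate. Of 4 tested cell cycle genes 2 were higher (Top2a and Stmn1). Of 6 chemokine receptors 1 was higher (Cx3cr1). Of 17 pattern recognition receptors 1 was higher (Clec4n) and 1 lower (Nod2). Of 7 iron and haem genes, 5 Fc receptors and 15 interferon-gamma-induced GTPases, 0 were past 2-fold.

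**Figure D2:**
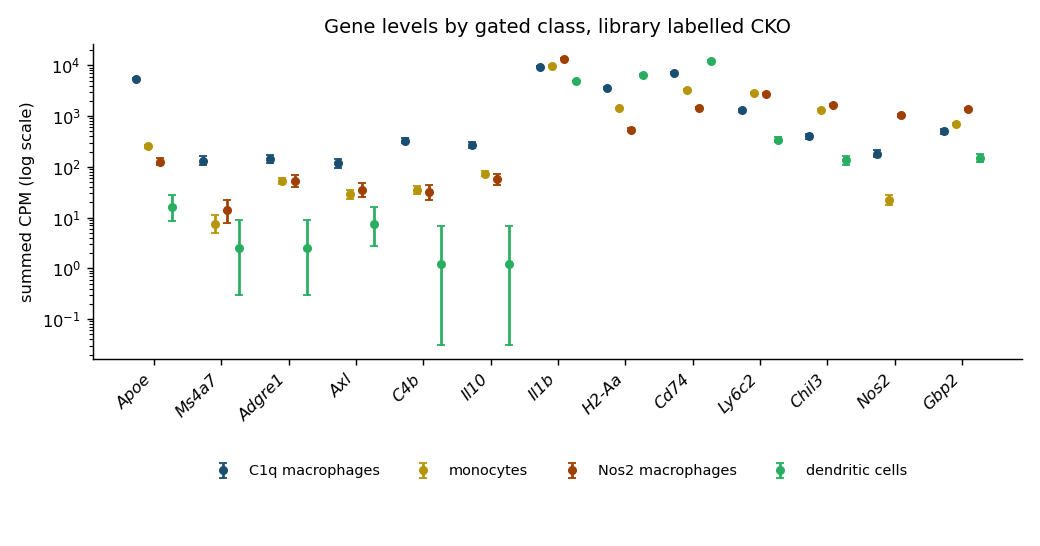
Summed level in CPM (y axis, log scale) of 13 genes in C1q macrophages (89 cells), monocytes (412), Nos2 macrophages (118) and dendritic cells (71) of the library labelled CKO, with exact 95% Poisson intervals that cover counting error only. Points at 0 UMIs are not drawn. Apoe is highest in C1q macrophages at 5462 CPM, and H2-Aa lies between monocytes and dendritic cells at 3548 CPM.

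Against Nos2 macrophages, gated on transcripts of the inducible nitric oxide synthase, 274 of 4073 genes were at least 2-fold higher in the C1q macrophages (6.73%) and 141 at least 2-fold lower (3.46%), with a median log2 ratio of 0.02. The interferon-gamma-induced GTPases, which attack vacuoles that hold microbes, were lower here: 9 of 12 tested were past 2-fold and 0 were higher, with a median log2 ratio of -1.34. Gbp2 stood at 498 CPM (452 to 549) against 1370 CPM and Gbp5 at 197 against 555 CPM. Cxcl9 and Cxcl10, chemokines induced by interferon gamma, were at 490 and 741 CPM against 1341 and 1663 CPM. Nos2 was at 182 against 1030 CPM, which the gate set. The highest named genes were Prg4, Plxdc2, Serpina3n, Alox15, Mgp and Serpinb2, with Plxdc2, a membrane receptor gene, at 71 UMIs in 27 members against 1 UMI. Cx3cr1 had 28 UMIs against 1, and 6 of 11 tested class II genes were higher and 0 lower.

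The genes lowest against Nos2 macrophages were Try5, Reg1, Try4, Ctrb1, Prss2 and Reg2, which encode pancreatic enzymes and Reg proteins. These rested on a single Nos2 macrophage for the most part: 1 cell held 408 of 431 Ctrb1 UMIs and 98 of 105 Prss2 UMIs in that class. Without the top cell of each class Try5, Ctrb1 and Reg2 were no longer lower (log2 ratios of 0.45, 0.41 and 0.95).

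Against dendritic cells, 580 of 3812 genes were at least 2-fold higher (15.2%) and 416 at least 2-fold lower (10.9%), with a median log2 ratio of -0.05. The highest named genes were Saa3 (3231 against 4.93 CPM), Apoe, Serpinb2, Cxcl1, C4b and Ecm1. The lowest were Sept3, Fscn1, Btla, Tnni2, Itgae and Plet1. Fscn1, an actin bundler of migrating dendritic cells, gave 0 UMIs in the members and 93 in dendritic cells, and Itgae, the CD103 chain, 6 against 125 UMIs. All 8 tested genes of the dendritic cell marker list, which includes the gate genes Flt3 and Zbtb46, were at least 2-fold lower, and Flt3 gave 2 UMIs in the members.

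The 12 genes highest against monocytes included Alox15, Prg4, Ccl24, Serpina3n, Pf4, Mmp13, Dcn, Mgp, Efnb2, Selp and Fabp4, and most of those came from few members. Prg4, which encodes the lubricating proteoglycan lubricin, had 357 UMIs in 14 members and 0 in monocytes, at least 506-fold higher by the floor of 3 counts over the class. Alox15, a lipoxygenase, had 136 UMIs in the same 14 members and 1 in monocytes (578-fold, 102 to 23010). In contrast, Dcn (111 UMIs) and Mgp (132 of 134 UMIs), genes of connective tissue cells, and Serpina3n (62 UMIs) came from 1 member, the cell with the most fibroblast transcripts. Without the cell with most Mgp UMIs in each class, Mgp stood at a log2 ratio of -0.06 to monocytes. The fibroblast and endothelial list summed to 236 CPM in members and 28.6 CPM in monocytes, and no Cdh5 UMI was found. Leaving out the member with most fibroblast transcripts moved the counts past 2-fold against monocytes from 212 to 210 higher and from 178 to 173 lower.

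The members fell into 3 sets by 4 genes, which were picked after their values had been seen, so the sets and all their differences are descriptions. The 14 members with at least 2 UMIs of Prg4 and Alox15 are called Prg4 Alox15 cells, and held 16 to 69 of these UMIs (median 32.5), while no other member held any. Of the remaining 75 members, 35 had more Apoe than Ly6c2 UMIs (Apoe cells) and 40 did not (Ly6c2 cells). The last cut runs through a continuum, since 12 of the 75 lie within 5 UMIs of it. Median depths were 6619.5, 8418 and 10383 UMIs and median C1q sums 29.5, 25 and 12 UMIs in the Prg4 Alox15, Apoe and Ly6c2 cells. By total the C1q genes made up 4966, 4050 and 1532 CPM.

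**Figure D3:**
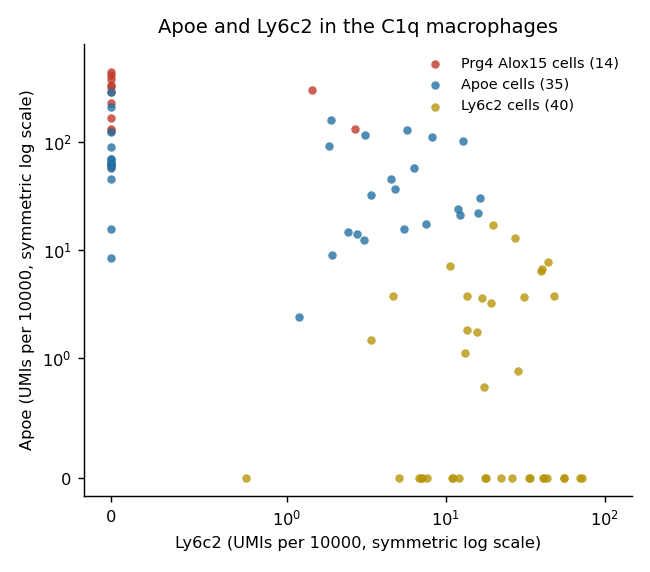
Apoe (y axis) against Ly6c2 (x axis) in each of the 89 C1q macrophages, in UMIs per 10000 UMIs of the cell on symmetric log scales, coloured by set. The 14 Prg4 Alox15 cells lie at high Apoe with 0 to 4 Ly6c2 UMIs, and the Apoe and Ly6c2 cells meet along the cut that defines them.

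The Prg4 Alox15 cells shared many genes that the split did not use. Serpinb2, an intracellular protease inhibitor, was found in all 14 (3 to 49 UMIs, median 23.5), and 14 of 14 members with at least 2 Serpinb2 UMIs were Prg4 Alox15 cells. Saa3, an acute-phase protein, was found in all 14 (4 to 787 UMIs, median 87.5), at 20573 CPM against 94.5 CPM in Apoe cells and 1401 CPM in Ly6c2 cells. Fn1 (6 to 45 UMIs) and Ecm1 (2 to 27 UMIs) were also found in all 14. Timd4, a receptor for phosphatidylserine on dying cells, was found in 10 of the 14 and 1 other member. Vsig4, a complement receptor, and Marco, a scavenger receptor, were each found in 5 of the 14 and in no other member, and these members held 88.2 and 86.5% of all Vsig4 and Marco UMIs of the library.

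Prg4, Alox15, Timd4, Selp, Icam2, F5, Saa3, Serpinb2 and the transcription factor gene Gata6 are known from large macrophages of the serous cavities, such as the peritoneum. A list of 18 such genes, assembled after these values were seen, summed to 31883 CPM in the Prg4 Alox15 cells, 219 CPM in Apoe cells and 1439 CPM in Ly6c2 cells. The list holds the split genes Prg4 and Alox15, and Saa3 alone gave 20573 of the 31883 CPM and 1401 of the 1439 CPM, so the sums are a description of that choice. Gata6 itself gave 2 UMIs, both in Prg4 Alox15 cells. The labels name the tissue only as colon, and where these cells lay was not tested. The library labelled CKO held 23 cells with at least 2 Prg4 and Alox15 UMIs, of which 9 were not members although 6 of the 9 had at least 5 C1q UMIs, and the library labelled WT held 0.

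In the same 14 cells class II transcripts were low. The class II list summed to a median of 1468 CPM per cell (0 to 11633), against 31438 CPM (8205 to 59586) in Apoe cells and 11998 CPM (766 to 64452) in Ly6c2 cells, so the first and second ranges overlap only in part. H2-Aa had a median of 0 UMIs (highest 22) against 43 (2 to 230) and 16.5 (0 to 92). Arg1, the arginase that competes with nitric oxide synthase for arginine, gave 136 of its 141 UMIs here, in 11 of 14 cells. C4b (244 of 276 UMIs), Il6 (156 of 213) and Cxcl1 (576 of 887) were also concentrated in these 14 cells. Ccl24, an eosinophil attractant, gave 67 of 69 UMIs and Pf4, platelet factor 4, 69 of 84 UMIs in 9 cells each. Ccr2 and Chil3 gave 0 UMIs.

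**Figure D4:**
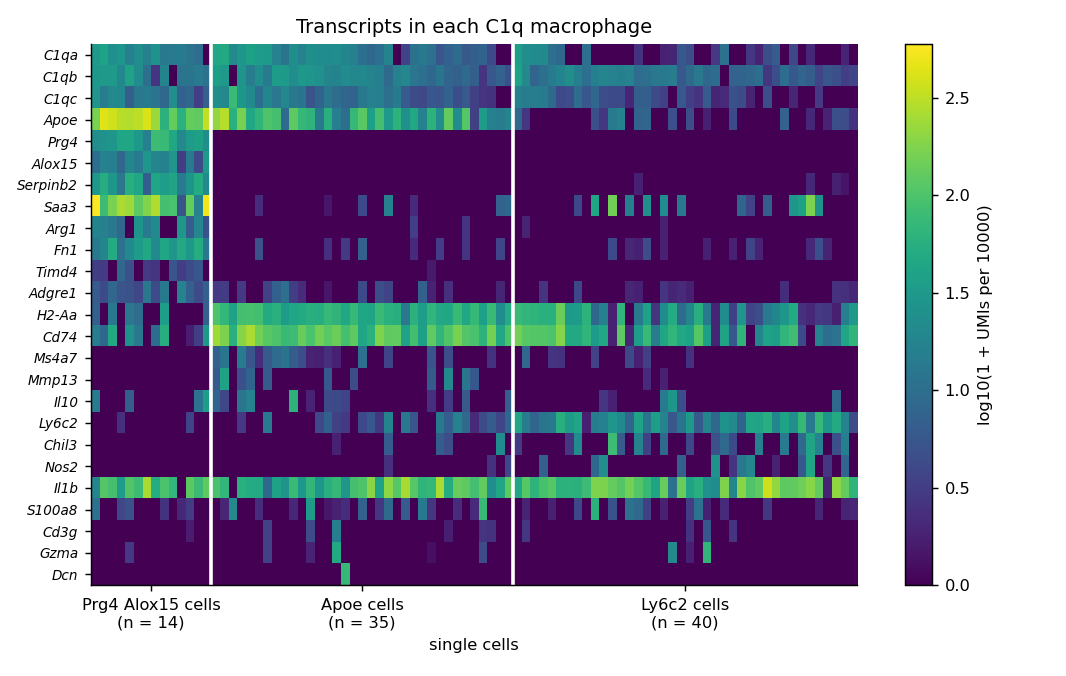
Level of 25 genes (rows) in each of the 89 C1q macrophages (columns), as log10(1 + UMIs per 10000 UMIs of the cell), with cells grouped by set and ordered by their C1q share within a set. The 14 Prg4 Alox15 cells on the left hold Serpinb2 and Saa3 throughout and little H2-Aa, Ms4a7 is absent from them, Nos2 is mostly in Ly6c2 cells, and Dcn is in 1 cell.

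The 35 Apoe cells held the most class II transcripts of the sets. Cd74 stood at 11793 CPM, against 1193 CPM in Prg4 Alox15 cells and 4620 CPM in Ly6c2 cells, and H2-Aa at 5790 CPM. Ms4a7 had 91 of its 112 UMIs in these cells and 0 in Prg4 Alox15 cells. Of 21 members with at least 2 Ms4a7 UMIs, 15 were Apoe cells and 0 were Prg4 Alox15 cells. All 11 members with at least 2 UMIs of Mmp13, a collagenase, were Apoe cells (122 of 124 UMIs). Cd63 (473 CPM), Axl (186 CPM), Cd81 (148 CPM), Lgmn (939 CPM) and Ccl12 (142 CPM) were highest in this set, and Mrc1, the mannose receptor, gave 13 of 17 UMIs here in 8 cells. Il10 was found in 13 Apoe cells, 4 Prg4 Alox15 cells and 6 Ly6c2 cells.

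The 40 Ly6c2 cells had C1q transcripts together with monocyte genes. The monocyte list summed to a median of 19118 CPM per cell (4376 to 42810), near the 20423 CPM of Prg4 Alox15 cells (9850 to 29538) and above the 9308 CPM of Apoe cells (0 to 27536), with wide overlap. Different genes made up these sums, since Plac8 stood at 5711, 155 and 2381 CPM and Fn1 at 55.4, 2891 and 53.2 CPM in Ly6c2, Prg4 Alox15 and Apoe cells. Nos2 had 146 of its 153 UMIs in Ly6c2 cells, and 12 of 14 members with at least 2 Nos2 UMIs were of this set. Arg1 reached 2 UMIs in 12 members, of which 11 were Prg4 Alox15 cells. No member had at least 2 UMIs of both Nos2 and Arg1. Counts this small leave little room for overlap, and whether the enzymes exclude each other was not tested. Chil3 (297 of 335 UMIs), Cxcl9 (361 of 411 UMIs) and Isg15 (888 of 1295 UMIs) were also concentrated there, and Isg15, an interferon-stimulated gene, was found in all 40. Apoe was found in 18 of them, with at most 16 UMIs.

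**Figure D5:**
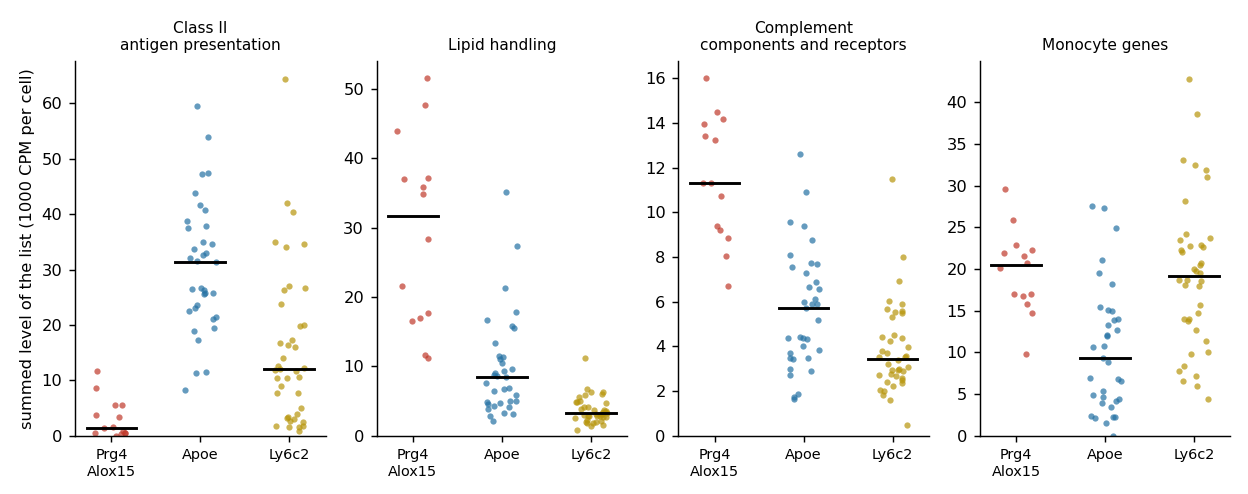
Summed level of 4 gene lists in each C1q macrophage (y axis, in 1000 CPM of the cell, a separate linear scale per panel from 0), with 1 point per cell and the median as a black line, for the 14 Prg4 Alox15, 35 Apoe and 40 Ly6c2 cells. Class II genes have medians of 1468, 31438 and 11998 CPM, lipid handling genes 31658, 8409 and 3219 CPM, complement genes 11302, 5721 and 3451 CPM and monocyte genes 20423, 9308 and 19118 CPM; the lipid list contains Apoe and the monocyte list Ly6c2, which the split used.

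Which differences from monocytes rest on the 14 Prg4 Alox15 cells was read by leaving these cells out, an alternative chosen after the data were seen. The other 75 members still differed from monocytes by a log2 ratio of 3.61 for Apoe, 4.33 for Ms4a7, 3.42 for Cd63, 2.21 for C3ar1, 2.13 for Axl, 1.73 for Il10, 1.49 for H2-Aa and 1.31 for Selenop. C4b dropped to 0.33, Adgre1 to 0.50, Il1a to 0.30 and Cxcl1 to 0.10. Il6 (-0.29), Saa3 (-0.31), Arg1 (-0.49) and Fn1 (-1.23) were then lower than in monocytes. C4b, Adgre1, Il1a, Cxcl1, Il6, Saa3, Arg1 and Fn1 were thus at least 2-fold above monocytes only with these 14 cells included, and the genes named first, from Apoe to Selenop, kept that difference without them. The counts over all genes moved from 212 to 176 higher and from 178 to 181 lower.

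Transcripts of other cell types in the members were measured with the marker lists. T cell markers outside the rule summed to 416 CPM in members and 235 CPM in monocytes, with UMIs in 49 of 89 members and 50 UMIs in the highest. Cd3d and Cd3g were each found in 11 members. NK and innate lymphoid markers summed to 339 against 242 CPM, with 99 UMIs in 1 member and 0 in most. Neutrophil markers summed to 1716 against 3193 CPM, with Ngp and Camp at 0, and S100a8 stood at 283 against 979 CPM. Plasma cell markers summed to 869 against 1392 CPM, and Igkc, an antibody light chain gene, was found in 87 members at 491 against 1002 CPM. Il22 gave 83 UMIs, of which 80 were in 1 Ly6c2 cell. Epithelial markers gave 6 UMIs and red blood cell markers 1, and mast cell and basophil markers gave 28, with Mcpt8, Fcer1a, Gata2 and Ms4a2 at 0. The Prg4 Alox15 cells held 213 CPM of T cell markers, 67.9 CPM of NK markers and 0 UMIs of fibroblast and endothelial markers, below the other sets in each. The part of these transcripts in the levels of single genes was not tested.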

How the data were processed

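The deposited files hold UMI counts per gene and barcode, integers that the authors did not normalize, per the file headers. That header names Cell Ranger 6.0.1. Cell Ranger 5.0.0, Seurat 3.2.3 and mm10 are given per the submitters' processing notes. The annotation and the calling of cell barcodes were not given in the sources used here. A barcode was kept with at least 200 genes and at most 20% mitochondrial UMIs. The libraries shared 6 barcodes, 0 of them members. The members and lists were chosen with earlier results of these data known.

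Cells were gated by UMI sums. Comparison cells had 0 UMIs of Cd79a, Cd3e and Cxcr2, at most 1 C1q UMI and, dendritic cells apart, at least 1 UMI of Csf1r or Cd68. Monocytes had at least 1 Ly6c2 and 3 Lyz2 UMIs, at most 2 Nos2 UMIs and no Flt3. Dendritic cells had at least 2 UMIs of Flt3 and Zbtb46 and 5 of H2-Ab1, at most 2 of Nos2 and no Siglech; 1 cell that met both gates stayed with monocytes. UMIs were summed per class and given as CPM, with exact Poisson, binomial and conditional 95% intervals (Python 3.11.15, SciPy 1.17.1). Genes with at least 50 UMIs over both classes were compared at 2-fold, also for the lists. This replaced a minimum of 20 UMIs in the class that was planned for lists. Against 0 counts, the floor was 3 counts over the class.

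The genes named as highest or lowest had 50 UMIs over both classes and 50 CPM in the higher class. Gate, unnamed, ribosomal, mitochondrial, immunoglobulin, T cell receptor, haemoglobin and sex-linked genes could not be named this way. The 12 highest and 12 lowest log2 ratios were taken against monocytes and 6 each way in the other comparisons, and list members could be named too. Of 419 list symbols 417 matched; Clec7a and Mx1 were not analysed here. Doublets were kept: Scrublet marked 213 CKO cells (1.91%, with 8.92% expected) and 1 WT cell, and 0 members. The scripts were tested on simulated data. Promoter windows are from RefSeq (GRCm38.p6), where C1qb and C1qc matched.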

Additional observations from a re-analysis of the deposited data

How the results depend on the processing

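The share of members in the library labelled CKO depended on the C1q minimum: it was 1.02% at 3 UMIs, 0.601% at 10 UMIs, and 0.459% (44 of 9580 cells) where each cell was first thinned to 2000 UMIs. It stayed within its counting interval at 0.805% with a 10% mitochondrial maximum, 0.82% with 500 genes and 0.813% without doublets. With a minimum of 20 instead of 50 UMIs, which tests more genes, 486 genes were at least 2-fold higher and 396 lower than in monocytes, 646 and 250 than in Nos2 macrophages, and 1025 and 765 than in dendritic cells. Every other count at 2-fold stayed within 1.5 times its value. Scaling without immunoglobulin, ribosomal and mitochondrial genes gave 541 higher and 485 lower against dendritic cells. Without the cell with most UMIs of the gene in each class, Mgp stood at a log2 ratio of -0.06 to monocytes and -0.12 to Nos2 macrophages, and Try5 at 0.45, Ctrb1 at 0.41 and Reg2 at 0.95 to Nos2 macrophages, all with the opposite sign; each of these had rested on 1 cell. Of the other values of named genes, 260 stayed within their counting interval and 23 moved without a change of sign. That interval is wide where a class holds few UMIs. Alox15 to monocytes went from 9.18 to 7.38 without the top cells and still counts as unmoved. Without their top cell, Serpina3n (3.69 to monocytes, 0.47 to Nos2 macrophages) and Dcn (1.11 to monocytes) had 0 UMIs left in the members. Their sign then rests on the floor of 3 counts. Genes of the members were not compared between libraries, under any setting, since no member is in the library labelled WT. No paired analysis was possible because each label has 1 library. Counts limit genes under 50 UMIs, which the 89 members leave untested.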
